A study of Mus musculus with 8 samples.

Results

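Transcripts of 10 genes of transforming growth factor beta (TGF-beta) biology were followed in mouse heart: the ligand genes Tgfb1, Tgfb2 and Tgfb3, the latent TGF-beta binding protein (LTBP) genes Ltbp1 to Ltbp4, the receptor genes Tgfbr1 and Tgfbr2, and Gdf15, which encodes a stress hormone of the same superfamily. They were taken by symbol from the 27304 genes of the count table, and all 10 were present and passed the filter on low counts that left 20093 genes for testing. Hearts came from male 129/Sv mice, an inbred strain with no engineered allele named in the labels, and both groups were kept for 13 weeks on their diet. The adenine group (4 libraries) ate a diet with 0.15% adenine, which injures the kidney and, per the labels, gave chronic kidney disease with rising plasma creatinine and urea and renal fibrosis. The control group (4 libraries) ate a standard diet. The labels do not give the age of the mice, and the design text describes the 4 control and 4 treated samples as having no replicates. Neither says that each library came from its own animal, so the p-values reflect sample-to-sample spread that could be technical.

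TGF-beta is made as a precursor whose propeptide stays wrapped around the mature dimer after cleavage and keeps it inactive. Inside the cell the propeptide is bonded to an LTBP, which anchors the latent complex in the extracellular matrix, and integrins and other activators free the growth factor there. Active TGF-beta binds TGFBR2, which recruits and phosphorylates TGFBR1, and TGFBR1 in turn phosphorylates SMAD2 and SMAD3, which carry the signal to the nucleus. In heart this pathway is known for turning fibroblasts into matrix-producing cells. GDF15 does not use these receptors: it acts through GFRAL in the hindbrain and is secreted by stressed cells of many tissues.

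Total counts were 24107554 to 33886385 per library in the controls and 15626620 to 29831706 in the adenine group. Levels are given as CPM, counts scaled to a common library size, and differences between diets as log2 fold changes, adenine minus control, from edgeR's quasi-likelihood test, called at a Benjamini-Hochberg adjusted p under 0.05 over all genes tested. One library stood apart: in adenine 3 the summed level of 12 macrophage markers was 3168 CPM. Adenine 1, 2 and 4 had 360 to 588 CPM, and the controls 436 to 741 CPM. Its 8 fibroblast markers summed to 3063 CPM, where adenine 1, 2 and 4 had 311 to 762 CPM and the controls 829 to 1331 CPM. Most of that sum in adenine 3 came from the collagen genes Col1a1, Col1a2 and Col3a1, at 433, 958 and 1262 CPM. Without these 3 genes, the summed fibroblast markers of adenine 3 lay within the control range and above adenine 1, 2 and 4. Of the 8 fibroblast markers, 4 had a positive log2 fold change. The 8 cardiomyocyte markers, in contrast, summed to 28388 CPM in adenine 3 and to 41556 to 54561 CPM in the 7 other libraries. All markers of these 3 lists had reads, and the cardiomyocyte sums fit the labelled tissue. In whole heart, fewer cells of a type and less RNA per cell cannot be told apart.

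**Figure D1:**
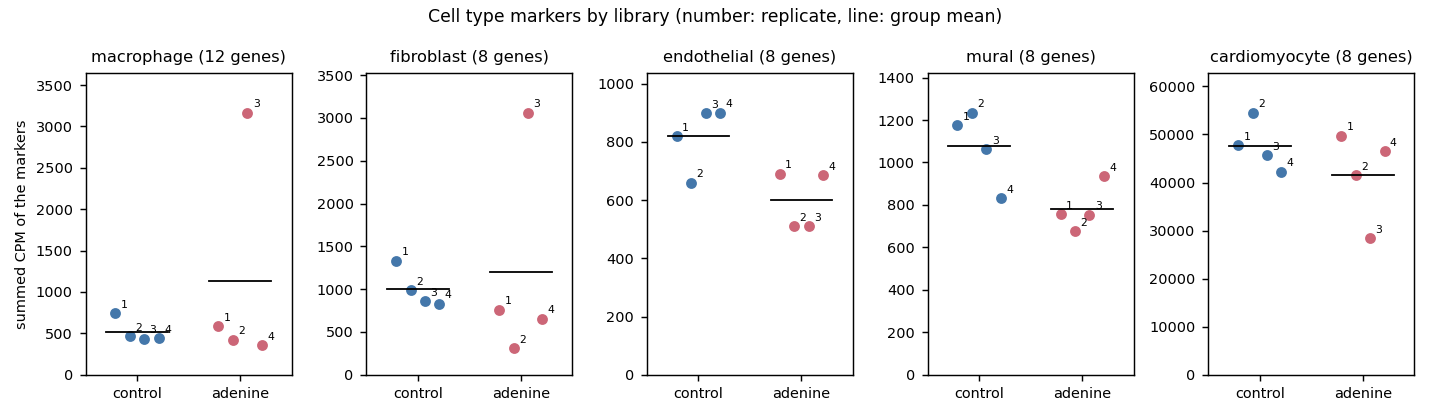
Summed level of cell type markers (CPM, linear axes from 0) in each control and adenine library, with the replicate number beside each point and a line at the group mean. Adenine 3 lies far above the other libraries for macrophage and fibroblast markers and below them for cardiomyocyte markers, while mural and endothelial sums are mostly lower in the adenine group. The fibroblast sum of adenine 3 lies within the control range once Col1a1, Col1a2 and Col3a1 are left out.

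None of the 10 genes passed the test in edgeR in either direction, where 0.0398% of all genes tested were called higher and 0% lower. At an unadjusted p under 0.05, 1 of the 10 was higher (Ltbp2) and 3 were lower (Ltbp4, Ltbp1 and Tgfb3). Over all genes the corresponding shares were 10.9% and 6.63%. DESeq2 called 1 of the 10, Ltbp4, lower and 0 higher, where it called 0.991% of its genes lower and 0.866% higher, and limma-voom called 0. Without adenine 3, edgeR called 0 of the 10, against 0.178% of all genes higher and 0.144% lower. Only for Ltbp4 did all adenine libraries lie on one side of all control libraries. They lay below them, as they did for 3.84% of all genes tested. For 3.45% of all genes they lay above, and 7.29% had no overlap in either direction. The median log2 fold change of the 10 was -0.22, against 0.05 over all genes tested, and 6 of the 10 values were negative. Without adenine 3 these medians were -0.35 and 0.03.

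**Figure D2:**
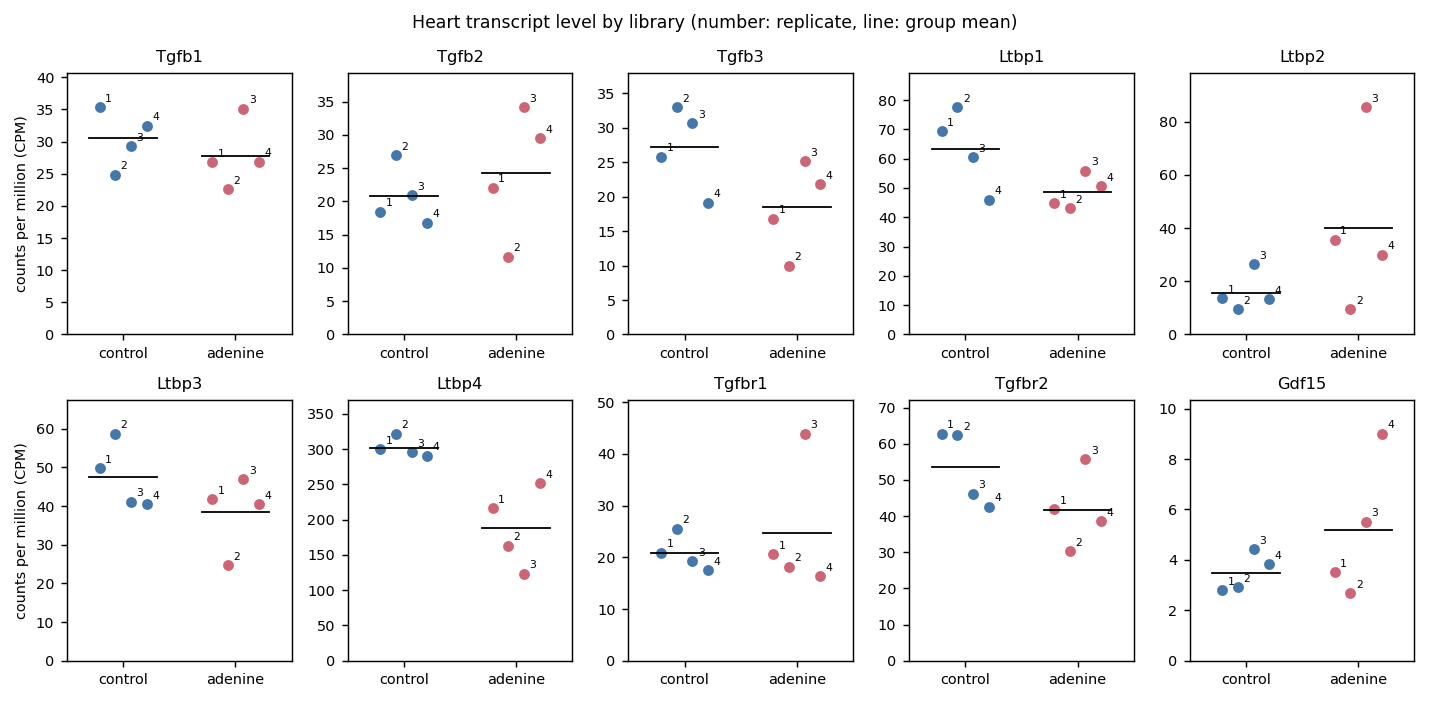
Level of each of the 10 transcripts (CPM, linear axes from 0) in each control and adenine library, with the replicate number beside each point and a line at the group mean. Ltbp4 is the one gene without overlap, at 123 to 251 CPM in adenine and 291 to 322 CPM in control libraries.

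The 5′ flanks of Ltbp2 and Ltbp4 are shown because these were the LTBP genes with the lowest p-values and with log2 fold changes of opposite sign. Both come from RefSeq on GRCm38.p6, the C57BL/6J reference and not the 129/Sv strain studied. Each holds 170 bases, from 250 to 81 bases before the RefSeq transcription start nearest to the GENCODE start, on the minus strand and outside the annotated exons of the gene. Capitals mark matches to the SMAD box (CAGAC or its complement GTCTG) and to the GC box (GGGCGG or CCGCCC).
Ltbp2, chr12:84876572-84876741: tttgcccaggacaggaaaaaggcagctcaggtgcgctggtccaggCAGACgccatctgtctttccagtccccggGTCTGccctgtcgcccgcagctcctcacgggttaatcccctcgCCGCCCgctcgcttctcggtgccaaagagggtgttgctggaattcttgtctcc
Ltbp4, chr7:27337693-27337862: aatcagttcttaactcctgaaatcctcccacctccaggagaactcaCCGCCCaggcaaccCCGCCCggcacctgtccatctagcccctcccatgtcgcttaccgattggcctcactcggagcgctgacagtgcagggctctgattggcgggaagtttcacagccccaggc

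The Ltbp2 window holds 2 SMAD boxes, starting 205 and 176 bases before the start, and 1 GC box at 133 bases. The Ltbp4 window holds no SMAD box and 2 GC boxes, at 204 and 190 bases. Of the 10 genes, 9 had a RefSeq promoter, and 4 of these 9 windows held a SMAD box (Tgfb2, Ltbp2, Tgfbr2 and Gdf15). The same window held a SMAD box in 31.8% of all 32851 promoters and a GC box in 19.5%, and 4 of the 9 held a GC box. No window of the 9 held the AP-1 motif TGANTCA, which is in 4.68% of all promoters. The SMAD box and GC box do not share letters in these windows, and a match is a description of letters, not of binding.

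Among the storage proteins, Ltbp4 was by far the most abundant, and it had the lowest p of the 10 genes. LTBP4 anchors latent TGF-beta1 and is also needed for the assembly of elastic fibres. Its level was 299, 322, 295 and 291 CPM in control 1 to control 4 and 216, 163, 123 and 251 CPM in adenine 1 to adenine 4. The controls lay close together, the adenine libraries were spread out below them, and the lowest value belonged to adenine 3. The group means were 302 ± 13.8 CPM in control and 188 ± 56.5 CPM in adenine libraries (SD, n = 4 each). Ltbp4 thus had a log2 fold change of -0.68 (SE 0.21, 95% interval -1.13 to -0.23), or 0.624-fold, with an adjusted p of 0.224 in edgeR. It passed in DESeq2 on the genes that passed the same filter (adjusted p = 0.0467), and missed in DESeq2 without the filter (adjusted p = 0.0514). Without adenine 3 the value was -0.53 with an adjusted p of 0.0978 in edgeR.

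Ltbp2 was the one LTBP gene whose mean was higher on the adenine diet. LTBP2 does not bind latent TGF-beta as the other LTBPs do and is a component of elastic microfibrils. Its level was 13.5, 9.49, 26.4 and 13.3 CPM in control 1 to control 4 and 35.7, 9.48, 85.4 and 30.0 CPM in adenine 1 to adenine 4. Adenine 1, 3 and 4 lay above every control, adenine 3 farthest, whereas adenine 2 was level with the lowest control. The means were 15.7 ± 7.37 and 40.1 ± 32.2 CPM (SD, n = 4 each). This gave a log2 fold change of 1.36 (SE 0.49, 95% interval 0.30 to 2.43) with an adjusted p of 0.2502 in edgeR, and of 0.68 without adenine 3, with an adjusted p of 0.205. Fibroblast markers summed to 3063 CPM in adenine 3, mostly from collagen genes, and to 311 CPM in adenine 2. These were the adenine libraries with the highest and the lowest Ltbp2. The part of these marker levels in the Ltbp2 values was not tested.

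Ltbp1 and Ltbp3, both carriers of the latent complex, had lower means on the adenine diet with overlapping groups. Ltbp1 was at 69.3, 77.5, 60.4 and 46.1 CPM in control 1 to control 4 and at 44.8, 43.0, 55.8 and 50.6 CPM in adenine 1 to adenine 4. Control 4 lay inside the adenine range, and the other controls lay above it. For Ltbp1 the log2 fold change was -0.38 (SE 0.17, adjusted p = 0.280 in edgeR). Ltbp3 was at 49.8, 58.7, 41.1 and 40.5 CPM in the controls and at 41.8, 24.8, 47.0 and 40.5 CPM in the adenine libraries. Only adenine 2 was clearly low for Ltbp3, whose log2 fold change was -0.30 (SE 0.20, adjusted p = 0.385 in edgeR) and -0.14 without adenine 2 or -0.18 without control 2.

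Scaled to the length of the annotated exons, so that genes can be compared, the 4 LTBP transcripts together gave 55.4 to 64.7 CPM per kilobase of exon in the controls and 33.1 to 51.7 in the adenine libraries. Ltbp4 made up 77.3%, 77.0%, 77.3% and 81.2% of this sum in control 1 to control 4. In adenine 1 to adenine 4 it made up 71.7%, 76.1%, 47.8% and 75.1%, below every control. Ltbp2 made up 1.79 to 5.45% in the controls and 3.50 to 26.1% in the adenine libraries, with the highest share in adenine 3. Without that library the adenine shares of Ltbp4 are still under the lowest control, though adenine 2 and 4 by less than 2 percentage points.

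**Figure D3:**
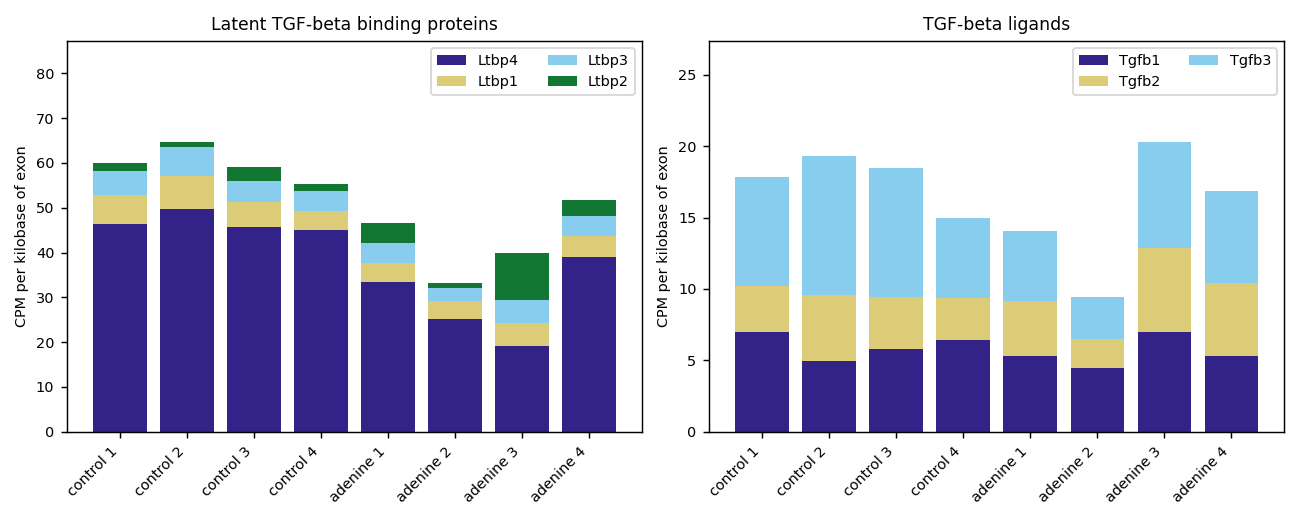
Stacked levels of the 4 LTBP transcripts (left) and the 3 TGF-beta ligand transcripts (right) in each library, in CPM per kilobase of exon on axes from 0. The LTBP total is 55.4 to 64.7 in control and 33.1 to 51.7 in adenine libraries, and the Ltbp2 part is widest in adenine 3.

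Of the ligands, Tgfb3 had the lowest p. TGF-beta3 shares its receptors with the other isoforms and is best known from development of the palate and from scar formation. Its level was 25.8, 33.0, 30.7 and 19.1 CPM in control 1 to control 4 and 16.8, 9.97, 25.2 and 21.8 CPM in adenine 1 to adenine 4. The groups overlapped, with control 4 among the adenine values and adenine 2 the lowest library. Means were 27.1 ± 6.13 and 18.4 ± 6.61 CPM (SD, n = 4 each), with a log2 fold change of -0.55 (SE 0.25, 95% interval -1.10 to -0.01, adjusted p = 0.281 in edgeR). Without adenine 3 it was -0.75, with an adjusted p of 0.0839 in edgeR, and without adenine 2 it was -0.35, with an adjusted p of 0.583.

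Tgfb1, the isoform most tied to fibrosis and also carried by platelets and macrophages, had overlapping groups. Its level was 35.3, 24.9, 29.3 and 32.4 CPM in control 1 to control 4 and 26.8, 22.6, 35.1 and 26.8 CPM in adenine 1 to adenine 4. Adenine 3 came close to the highest control, and the other adenine libraries lay at the lower end of the control range or under it. Its log2 fold change was -0.13 (SE 0.17, adjusted p = 0.644 in edgeR), and its 95% interval of -0.49 to 0.23 spans 0.714-fold to 1.17-fold. It was -0.27 without adenine 3 and -0.21 without control 2, but -0.04 without adenine 2 and -0.06 without control 1. Platelet markers, of which 4 of 5 had reads and Gp1bb was at 0 in every library, summed to 44.0 CPM in adenine 3 and to 17.2 to 26.0 CPM elsewhere, and macrophage markers were highest in that library too. Their part in the Tgfb1 level of adenine 3 was not tested.

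Tgfb2, the isoform that acts in valve and endocardial development, had a higher mean and a wider spread on the adenine diet. It was at 18.5, 27.0, 20.9 and 16.8 CPM in control 1 to control 4 and at 22.0, 11.7, 34.1 and 29.5 CPM in adenine 1 to adenine 4. Adenine 3 and 4 lay above every control, and adenine 2 lay below every control. Tgfb2 had a log2 fold change of 0.23 (SE 0.27, 95% interval -0.35 to 0.81, adjusted p = 0.608 in edgeR). It was 0.02 without adenine 3 and 0.46 without adenine 2 (adjusted p = 0.489 in edgeR), and 0.39 and 0.14 without control 2 and control 4. Scaled to length, Tgfb3 made up 37.7 to 50.4% of the ligand transcripts in the controls and 31.2 to 38.2% in the adenine libraries, so that the ranges met. The summed ligand level was 15.0 to 19.3 CPM per kilobase in the controls and 9.44 to 20.3 in the adenine libraries.

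The receptor transcripts had means in opposite directions. Tgfbr2, which encodes the receptor that binds ligand, was at 62.8, 62.4, 46.2 and 42.6 CPM in control 1 to control 4 and at 41.9, 30.3, 55.7 and 38.5 CPM in adenine 1 to adenine 4. Adenine 1, 2 and 4 lay below every control, and adenine 3 lay among them. The Tgfbr2 log2 fold change was -0.36 (SE 0.20, 95% interval -0.79 to 0.07, adjusted p = 0.331 in edgeR), and -0.54 without adenine 3, with an adjusted p of 0.0922. Without adenine 2 it was -0.24, with an adjusted p of 0.666 in edgeR.

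Tgfbr1, the kinase that phosphorylates SMAD2 and SMAD3, was at 20.9, 25.6, 19.3 and 17.5 CPM in control 1 to control 4 and at 20.6, 18.2, 43.9 and 16.3 CPM in adenine 1 to adenine 4. A single library, adenine 3, was high, and the 3 others were within or just under the control range. The log2 fold change of 0.25 (SE 0.27, adjusted p = 0.582 in edgeR) turned to -0.19 without adenine 3, with an adjusted p of 0.417. It was 0.44 without adenine 4 and 0.39 without control 2. Per length, Tgfbr2 made up 70.5%, 66.1%, 65.6% and 66.0% of the summed receptor transcripts in the controls, replicates 1 to 4. In the adenine libraries, in the same order, its share was 61.9%, 57.0%, 50.3% and 65.3%. The adenine shares were all lower than the control shares, adenine 4 by less than 1 percentage point.

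**Figure D4:**
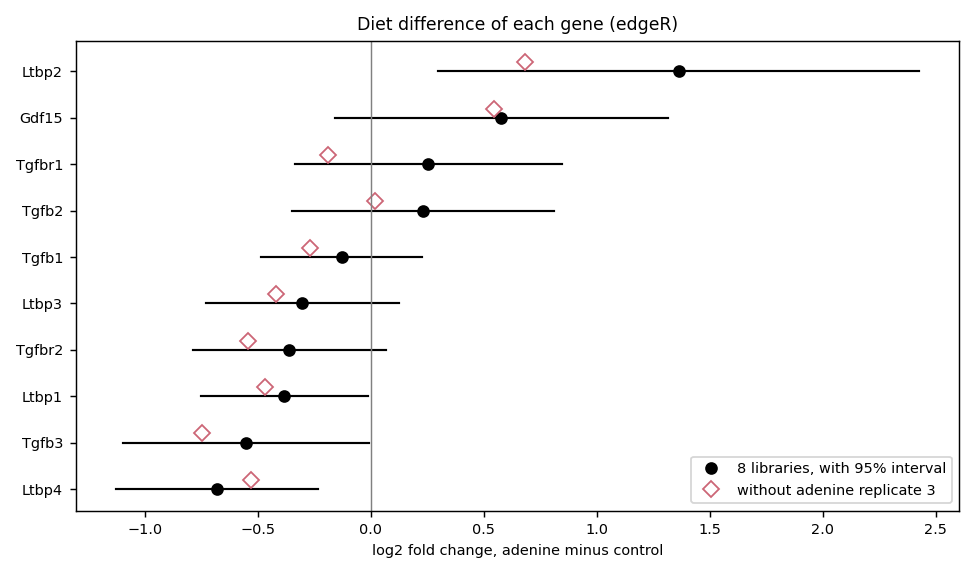
Log2 fold change of each of the 10 genes, adenine minus control, with all 8 libraries and its 95% interval (filled points and lines) and without adenine replicate 3 (open diamonds). Ltbp2 is highest at 1.36 and Ltbp4 lowest at -0.68, and Tgfbr1 moves from 0.25 to -0.19 when the library is left out.

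Gdf15 was the least abundant of the 10 by CPM, with 86 to 119 reads in the controls and 44 to 241 reads in the adenine libraries. Its level was 2.80, 2.91, 4.43 and 3.82 CPM in control 1 to control 4 and 3.52, 2.69, 5.51 and 9.01 CPM in adenine 1 to adenine 4. Adenine 3 and 4 lay above every control, adenine 1 inside the control range and adenine 2 below it. Means were 3.49 ± 0.775 and 5.18 ± 2.81 CPM (SD, n = 4 each). Gdf15 had a log2 fold change of 0.58 (SE 0.34, 95% interval -0.16 to 1.32, adjusted p = 0.354 in edgeR). It was 0.55 without adenine 3, but 0.20 without adenine 4, with an adjusted p of 0.770. Adenine 4, with the highest Gdf15, had 360 CPM of macrophage and 653 CPM of fibroblast markers. Adenine 3, with the next highest, had 3168 and 3063 CPM, the latter mostly from collagen genes. The part of these marker levels in the Gdf15 values was not tested.

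Ordered by length-scaled level in the controls, Ltbp4 came first with 46.7 ± 2.13 CPM per kilobase. Next were Tgfb3 with 8.02 ± 1.81, Tgfbr2 with 6.53 ± 1.30, Tgfb1 with 6.05 ± 0.889, Ltbp1 with 5.92 ± 1.26 and Ltbp3 with 5.24 ± 0.945. Below them were Tgfb2 with 3.59 ± 0.768, Tgfbr1 with 3.19 ± 0.532, Ltbp2 with 1.92 ± 0.901 and Gdf15 with 1.89 ± 0.419 (SD, n = 4). Neighbours in this order differed by more than the larger of their SDs at only 3 steps, from Ltbp4 to Tgfb3, from Ltbp3 to Tgfb2 and from Tgfbr1 to Ltbp2. In the adenine libraries Ltbp4 was still first, at 29.1 ± 8.75, and Ltbp2 was at 4.90 ± 3.93, near Tgfbr2 with 5.08 ± 1.30 and Ltbp1 with 4.54 ± 0.543.

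Library differences within the adenine group were shared by most of the genes. Adenine 3 was the highest adenine library for 8 of the 10, all but Ltbp4 and Gdf15, and adenine 2 was the lowest for 8, all but Ltbp4 and Tgfbr1. Among the controls, control 4 was the lowest for 7 of the 10. Adenine 2 was also the shallowest library and had the lowest sums of fibroblast (311 CPM), mural (675 CPM) and atrial markers (105 CPM). Atrial markers summed to 866 to 4856 CPM in the controls and 915 to 2183 CPM in adenine 1, 3 and 4. Endothelial markers summed to 660 to 901 CPM in the controls and 510.1 to 691 CPM in the adenine libraries, and mural markers to 831 to 1235 CPM and 675 to 936 CPM. Erythroid markers, of which 5 of 6 were in the table, were at 7008 to 26049 CPM in the controls and 1660 to 3085 CPM in the adenine libraries, with no overlap. Lymphocyte sums were 5.73 to 9.25 and 6.46 to 15.96 CPM, adipocyte sums 4.51 to 94.3 and 13.4 to 32.1 CPM, and mesothelial sums 8.12 to 30.3 and 10.8 to 14.1 CPM, control before adenine. The part of these marker levels in the values of the 10 genes was not tested.

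The transcripts whose library profile was most like that of Ltbp4 were Mus81, a DNA endonuclease, Tesc, a calcium-binding protein, and Nfil3, a transcription factor. Their log2 profiles over the 8 libraries, each centred on its own mean, differed from that of Ltbp4 by a root mean square of 0.0884, 0.0950 and 0.107, and their log2 fold changes were -0.60, -0.73 and -0.58. Among the closest to Ltbp2 were Col8a1, a collagen, and Cilp, a matrix protein of cartilage and heart, at 0.329 and 0.408. Closest to Gdf15 were Nmrk2, a nicotinamide riboside kinase of muscle, Ptprn and Lman1l, at 0.255, 0.272 and 0.276. The larger distances for Ltbp2 and Gdf15 go with their wider spread over libraries, an SD of 1.10 and 0.58 in log2 against 0.49 for Ltbp4. None of these 8 genes passed the test.

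Genes that store or activate latent TGF-beta had 0 of 16 called in edgeR, with 2 higher and 3 lower at an unadjusted p under 0.05. The shares over all genes at that p were 10.9% and 6.63%. DESeq2, which gave no adjusted p for Fn1 of this list, called 2 lower, Dcn and Itgb6, and 0 higher. It called 0.991% of its genes lower and 0.866% higher. All adenine libraries lay below all controls for 2 of the 16, Dcn and Itgb6, against 3.84% of all genes. The lowest p-values belonged to Dcn, Itgb6 and Fbn2. Dcn, which encodes decorin, a proteoglycan that binds TGF-beta, was at 800.1, 1028, 735 and 605 CPM in the controls and at 492, 419, 489 and 569 CPM in the adenine libraries, without overlap. Its log2 fold change was -0.69 (SE 0.20, adjusted p = 0.214 in edgeR, 0.0369 in DESeq2). Itgb6, a subunit of an integrin that activates TGF-beta, was at 12.5 to 20.7 CPM in the controls and 5.99 to 12.5 CPM in the adenine libraries, with a log2 fold change of -0.80 (SE 0.24, adjusted p = 0.216 in edgeR, 0.0480 in DESeq2). The highest adenine value lay only just under the lowest control. Fbn2, a fibrillin to which LTBPs attach, had 0.85 (SE 0.27, adjusted p = 0.228 in edgeR). The median of the 16 was 0.02, and -0.35 without adenine 3.

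Coreceptors and SMAD pathway genes leaned to negative values: 17 of 20 were below 0, with a median of -0.22, against 9196 of 20093 over all genes, and 0 of the 20 were called in edgeR or DESeq2. At an unadjusted p under 0.05, 1 of the 20 was higher and 2 were lower, against 10.9% and 6.63% of all genes. Smad3, a transducer of TGF-beta signals, had 14.7 ± 3.27 CPM in control and 9.88 ± 1.69 CPM in adenine libraries (SD, n = 4 each), with a log2 fold change of -0.57 (SE 0.19, adjusted p = 0.235 in edgeR). Tgif1, a corepressor of SMADs, had 0.47 (SE 0.21), and Smurf1, a ubiquitin ligase for SMADs and receptors, -0.31 (SE 0.14), both with an adjusted p of 0.281 in edgeR.

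Known TGF-beta target genes had 0 of 19 called in edgeR, with 5 higher and 1 lower at an unadjusted p under 0.05. The shares over all genes were 10.9% and 6.63%. All adenine libraries lay above all controls for 3 of the 19 (Lox, Tnc and Cthrc1), against 3.45% of all genes. Tnc and Cthrc1, named after their values were seen, had log2 fold changes of 2.64 and 3.68 (adjusted p = 0.216 and 0.203 in edgeR). They reached 64.5 and 58.6 CPM in adenine 3, but at most 5.92 and 2.63 CPM in adenine 1, 2 and 4. Their lowest adenine values, 5.20 and 1.72 CPM, lay only just above their highest controls, 4.90 and 1.61 CPM. DESeq2 called 0 of the 15 for which it returned an adjusted p (Fn1, Lox, Tnc and Cthrc1 had none). The median log2 fold change of the 19 was 0.58, and -0.11 without adenine 3, against 0.05 and 0.03 over all genes. Adenine 3 was the highest of all 8 libraries for 15 of the 19. Timp1, an inhibitor of matrix proteases, was at 7.19, 5.69, 4.69 and 3.33 CPM in the controls and at 19.2, 5.99, 83.1 and 9.91 CPM in the adenine libraries. Adenine 2 lay inside the control range and the others above it, and the log2 fold change was 2.50 (SE 0.65, adjusted p = 0.182 in edgeR), or 1.16 without adenine 3. Lox, a collagen crosslinking enzyme, had 2.69 (SE 0.74, adjusted p = 0.203 in edgeR), or 0.80 without adenine 3. Lox reached 172 CPM in adenine 3, whereas adenine 1, 2 and 4 had 10.3 to 20.2 CPM, all above the controls with 7.11 to 9.41 CPM. Of these targets, Col1a1, Col1a2 and Col3a1 also served as fibroblast markers and Acta2 and Tagln as mural markers.

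Cdkn1a, the p21 gene, was the only gene called in the list of the Gdf15 receptor and of stress genes that share inducers with Gdf15. Of the 15 genes, 1 was called higher and 0 lower in edgeR, against 0.0398% and 0% of all genes. The list was chosen with earlier results of these data known. Cdkn1a rose from 23.6 ± 1.19 to 46.5 ± 7.89 CPM (SD, n = 4 each, log2 fold change 0.98, SE 0.15, adjusted p = 0.0482 in edgeR). All 4 adenine libraries, at 34.9 to 52.3 CPM, lay above the controls, at 22.1 to 24.6 CPM. The call was close to the threshold: it held in 2 of the 8 fits that left out 1 library, those without adenine 2 or adenine 3, and was lost without each control, adenine 1 or adenine 4, with adjusted p from 0.0150 to 0.190 in edgeR and log2 fold changes from 0.91 to 1.09, and it missed in limma-voom (adjusted p = 0.0719) but not in DESeq2 (adjusted p = 0.000412). At an unadjusted p under 0.05 in edgeR, 3 of the 15 were higher and 0 lower, against 10.9% and 6.63% of all genes. All adenine libraries lay above all controls for 3 of the 15, among them Chac1, against 3.45% of all genes. Log2 fold changes were positive for 6 and negative for 9, with a median of -0.03. Atf4 had -0.02 and Ddit3 -0.03, both transcription factors of the integrated stress response. Chac1 had 0.60 and Atf3 0.61 (adjusted p = 0.284 and 0.360 in edgeR). Gfral, the receptor gene, had 0.332 and 0.330 CPM on average in control and adenine libraries. Atf4, Ddit3, Chac1, Atf3 and Gfral were named after their values were seen.

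**Figure D5:**
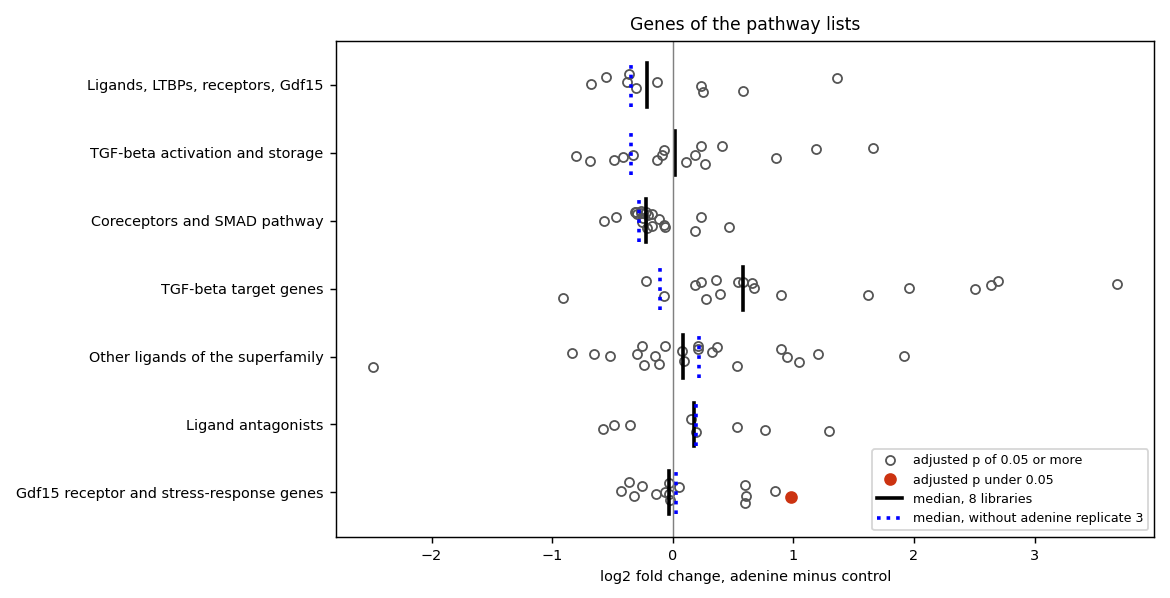
Log2 fold change of each tested gene of the 10 followed here and of 6 pathway lists, adenine minus control, with the called gene filled, the median of all 8 libraries as a solid line and the median without adenine replicate 3 as a dotted line (vertical scatter carries no value). The median of the TGF-beta target genes is 0.58 with all libraries and -0.11 without adenine replicate 3, and the one called gene is Cdkn1a at 0.98.

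On GRCm38, Ltbp4 (ENSMUSG00000040488) spans 27305136 to 27337692 on chromosome 7, which also holds Tgfb1 (ENSMUSG00000002603) at 25687002 to 25705077. Ltbp2 (ENSMUSG00000002020) spans 84783212 to 84876532 and Tgfb3 (ENSMUSG00000021253) 86056745 to 86079041, both on chromosome 12. Gdf15 (ENSMUSG00000038508) lies at 70629393 to 70632456 on chromosome 8, Tgfbr1 (ENSMUSG00000007613) at 47353222 to 47414931 on chromosome 4 and Tgfbr2 (ENSMUSG00000032440) at 116084293 to 116175360 on chromosome 9. Tgfb2 (ENSMUSG00000039239) spans 186622792 to 186705989 on chromosome 1, Ltbp1 (ENSMUSG00000001870) 75005568 to 75392512 on chromosome 17 and Ltbp3 (ENSMUSG00000024940) 5740904 to 5758532 on chromosome 19. Exons of Ltbp2 share 764 bases with the antisense gene D030025P21Rik, those of Tgfb2 124 bases with Gm29491, and those of Tgfb3 163 and 257 bases with Gm37804 and Gm48008, all on the opposite strand. No source used here says if reads were counted by strand, so the values of Tgfb2, Tgfb3, Ltbp2 and Ltbp3 are uncertain to that extent, whereas the exons of the 6 other genes overlap no annotated gene.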

How the data were processed

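Raw read counts per gene were deposited by the authors, whole numbers without scaling, in 1 table for 4 control and 4 adenine heart libraries. Per the submitters' processing notes, FastQC 0.11.9 and STAR 2.7.6a were used with the GRCm38.p6 build. No counting program, annotation or strand setting is named in those notes or the labels. Groups and replicate numbers came from the sample titles. The test was that of edgeR 4.0.16 under R 4.3.3 (default low-count filter by group, TMM factors, quasi-likelihood F-test, Benjamini-Hochberg adjustment over 20093 genes). Standard errors are the log2 fold change divided by the root of its F statistic. CPM used the TMM-scaled library sizes, and length-scaled levels used merged exons of GENCODE M21. Intervals have a confidence level of 95%.

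The 10 genes, the pathway lists and the marker lists were chosen with earlier results of these data known. The genes named were the 10, every called gene of a list or otherwise the 3 with the lowest p, and the 3 closest profiles (log2 CPM with a prior count of 2, mean of at least 1 CPM) for Gdf15, Ltbp4 and Ltbp2. Some genes that this rule names are not reported here. Gdf1 had no reads under its own identifier, and its other row carries that of Cers1, and 1 of 6 erythroid symbols had no row. Alternatives were DESeq2 1.42.0, limma-voom (limma 3.58.1), other scalings and filters, each library left out, and the replicate number as a block. DESeq2 without the filter was added after seeing the data.

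On simulated counts for adenine against control with 200 of 19658 genes changed, edgeR recovered 52% of the changes of 1 log2 unit and 91% of those of 2, with 10 false calls. Within each group no library was a duplicate of another: pairs differed well beyond sampling noise, with a chi-square of 20.01 to 96.8 per gene. Pairs of a control and an adenine library were not examined in this way. With 44 to 241 reads, Gdf15 carries the largest counting error of the 10.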

Additional observations from a re-analysis of the deposited data

Results flagged for a closer look

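Tgfbr1 at 43.9 CPM in adenine 3 was far from the other adenine libraries, at 16.3 to 20.6 CPM. The gap to the nearest library took 0.846 of the range of the group, above the 95% critical value of Dixon's test for 4 samples. It was the 1 such value among 20 groups examined, and chance flags about 1 in 20.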

How the results depend on the processing

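Of 180 fold changes of the 10 genes under 18 alternative settings, 178 kept their direction and their side of the threshold. Ltbp4 passed in DESeq2 (adjusted p = 0.0467, log2 fold change -0.70), where 1 of the 10 genes was called lower. Tgfbr1 ranged from -0.19 (without adenine 3) to 0.44 when 1 library was left out. Counts over all genes moved more: against 8 higher and 0 lower, upper-quartile factors gave 18 and 1, DESeq2 153 and 175, DESeq2 without the filter 120 and 152, and an adjusted p under 0.1 gave 21 and 10. Limma-voom called 5 higher, robust edgeR 6 lower and the fit with no filter 1 lower. Leaving out 1 library gave 1 to 37 higher and 0 to 30 lower, both most without adenine 3. It gave 21 and 6 without adenine 4, 3 higher without adenine 1 or control 2, and 1 higher without control 1, 3 or 4. Upper-quartile factors moved the median of all genes from 0.05 to 0.20. Same-numbered libraries did not pair: their deviations correlated at -0.50 to 0.30, and 1 of 8 libraries correlated best with its own number. With the replicate block 16 genes were higher and 16 lower, none of them among the 10, and Cdkn1a missed the threshold (adjusted p = 0.0557 in edgeR). Depth limits Gdf15 most, whose highest library holds 241 reads.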

Other observations

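Other ligands of the superfamily had 0 of 22 tested genes called in edgeR, with 3 higher and 3 lower at an unadjusted p under 0.05. Over all genes those shares were 10.9% and 6.63%. DESeq2 called 1, Gdf3, higher and 0 lower, against 0.866% and 0.991% of its genes. It gave no adjusted p for Bmp8b, Bmp10, Nodal, Lefty2 and Amh. All adenine libraries lay above all controls for 2 of the 22 and below them for 1, against 3.45% and 3.84% of all genes. Gdf3, a ligand related to Nodal, was at 0.226 to 0.633 CPM in the controls and 0.680 to 3.22 CPM in the adenine libraries, without overlap, with a log2 fold change of 1.92 (SE 0.55, adjusted p = 0.216 in edgeR, 0.0399 in DESeq2). Without adenine 3, where it was highest, its value was 1.32. Gdf6, a ligand of joint and skeletal development, had 1.28 ± 0.218 CPM in control and 2.48 ± 0.948 CPM in adenine libraries (SD, n = 4 each), with 0.95 (SE 0.34), and Bmp4, a ligand of vascular and cardiac development, had -0.52 (SE 0.22). Of 26 symbols in the list, Gdf1, Gdf2, Gdf5 and Gdf7 did not pass the low-count filter.

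Extracellular antagonists of these ligands had 0 of 8 tested genes called in edgeR and DESeq2 called 0 of the 6 with an adjusted p, with 0 at an unadjusted p under 0.05 in edgeR. At that p, 10.9% of all genes were higher and 6.63% lower. Fst, which encodes follistatin, a trap for activins, had 2.65 ± 0.797 CPM in control and 1.89 ± 0.167 CPM in adenine libraries (SD, n = 4 each), with a log2 fold change of -0.49 (SE 0.29). Grem1, a BMP antagonist, had 1.29 (SE 0.80) with all libraries, but adenine 2 alone, with 3.49 CPM, stood above the rest of its group, whose values were 0.414 to 0.640 CPM. Without adenine 2 the log2 fold change was 0.14. Dand5 had -0.35 (SE 0.22), and -0.18 without adenine 3.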
